A study of Homo sapiens with 4 samples.

Results

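The mevalonate pathway and the first steps toward sterols were examined through 9 genes, chosen by name from the 25066 genes of the table: HMGCS1, MVK, PMVK, MVD, IDI1, FDPS, FDFT1, SQLE and GGPS1. All 9 had a row of their own and all 9 were tested. RNA was sequenced from NUDUL1, a human diffuse large B cell lymphoma line of the germinal center type that carries doxycycline-inducible Cas9, was grown from a single-cell clone and was transduced with Tbxa2r, a receptor that couples to Gα13. Cells given a control sgRNA (2 libraries) and cells given a GNA13 sgRNA, called GNA13-deficient in the labels (2 libraries), were all treated with U46619, a stable mimic of thromboxane A2, at 10 nM for 24 h, so that no untreated cells were compared. Each genotype rests on 1 sgRNA, and no source says whether the duplicates were grown apart, so p values measure the spread between these libraries, which may be technical.

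The mevalonate pathway turns acetyl-CoA into isoprene units. These are joined into farnesyl diphosphate, which is either paired into squalene for cholesterol or lengthened into geranylgeranyl diphosphate for the lipid anchors of small GTPases. The genes are known as targets of SREBP2, a transcription factor released when membrane sterols are low, and dividing B cells need the products for new membrane. HMGCS1 makes HMG-CoA, MVK phosphorylates mevalonate, PMVK phosphorylates the phosphomevalonate so made, and MVD and IDI1 yield the isoprene units. FDPS makes farnesyl diphosphate, FDFT1 makes squalene, SQLE oxidizes it, and GGPS1 makes geranylgeranyl diphosphate on the other branch.

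Values are the authors' normalized reads per gene on the log2 scale, from libraries of 29209544 to 31537955 mapped reads. The 9 genes had between 554 and 13204 reads in a library, so that counting error was at most 4.25% of the reads of a gene. B cell genes were at high levels in all 4 libraries (MS4A1, CD79A, CD79B, PAX5 and CD22 summed to 48120 and 51940 normalized reads in control and 43130 and 46570 in GNA13-deficient libraries, with MS4A1 called lower). Of 4 T cell genes, CD3D, CD3E and CD2 were listed at 0 everywhere and CD3G had 1 read in 1 library. The sum of 4 myeloid genes was 227.9 and 242.1 normalized reads in the control libraries and 27.7 and 26.9 in the GNA13-deficient libraries, with 2 of the 4 lower (ITGAM and LYZ) and CD14 at or near 0 throughout; their part in the results was not tested. GNA13 itself had log2 values of 12.46 and 12.45 in control and 13.10 and 13.11 in GNA13-deficient libraries (adjusted p = 0.00214), so the transcript was more abundant in the libraries labelled GNA13-deficient. That name is taken from the labels throughout, and each direction rests on it.

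Of the 9 genes, 8 were higher in the GNA13-deficient libraries, by 1.53-fold to 2.37-fold, and GGPS1 was not called in either direction. In the same test across all 16945 genes, 13.1% were called higher and 16.6% lower (29.7% in either direction), and among the 8473 genes at or above the median level 21.3% were called higher (39.0% in either direction). The median log2 difference of the 9 was 0.76, against -0.02 over all genes tested. Together the 9 genes gave 31720 and 32490 normalized reads in the control libraries and 55790 and 59080 in the GNA13-deficient libraries. In bulk RNA, a change in the share of cells in some state and a change in RNA per cell cannot be told apart.

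**Figure D1:**
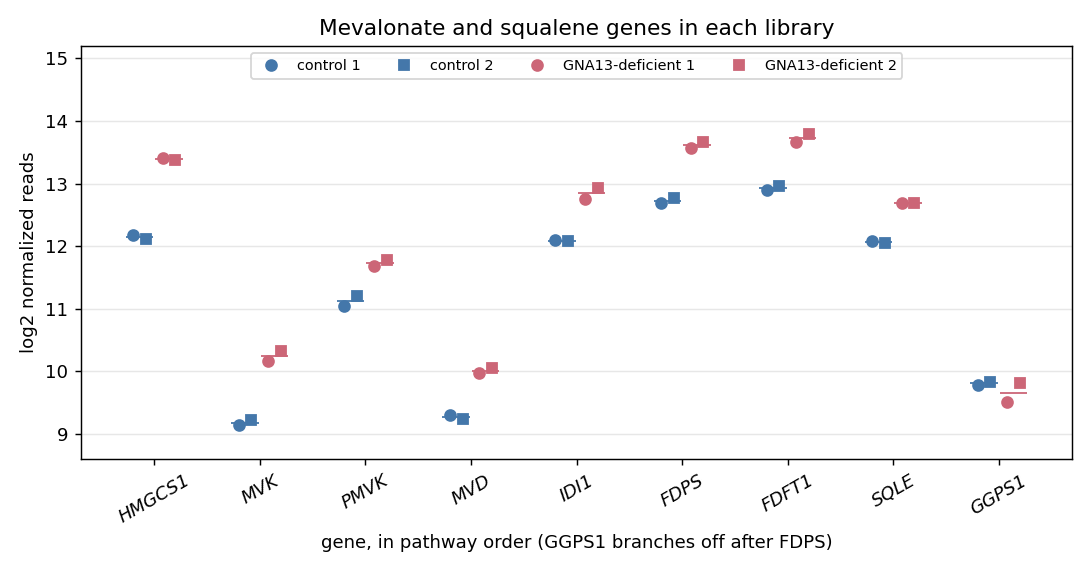
Log2 normalized reads of the 9 genes in each of the 4 libraries (blue, control; red, GNA13-deficient; circles, replicate 1; squares, replicate 2), with bars at the genotype means. For 8 genes both red points lie above both blue points, by gaps of 0.48 to 1.20, while GGPS1 has 1 red point below both blue points and 1 between them.

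HMGCS1 showed the largest difference of the 9. HMGCS1 (Entrez 3157), the cytosolic synthase that feeds the pathway, had log2 values of 12.18 and 12.12 in control and 13.41 and 13.38 in GNA13-deficient libraries. The groups stood 1.20 apart at their nearest points, far more than either pair of replicates differed. The difference was 1.24 (standard error 0.06, adjusted p = 0.000958 by limma), a 2.37-fold rise, and ranked 25 among all rises in the upper 8473 genes. On GRCh37, the assembly of hg19, HMGCS1 occupies bases 43287572 to 43313614 of chromosome 5 and is read from the minus strand, with 11 exons in its MANE Select transcript.

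The kinases MVK and PMVK rose by unequal amounts. MVK had log2 values of 9.14 and 9.22 in control and 10.17 and 10.32 in GNA13-deficient libraries, a difference of 1.07 (standard error 0.08, adjusted p = 0.00208). PMVK, which acts next, had values of 11.05 and 11.21 in control and 11.69 and 11.79 in GNA13-deficient libraries. Its groups were the nearest of the 8, at 0.48 apart, and its difference of 0.61 (standard error 0.08) was the smallest rise (adjusted p = 0.0065). The intervals of the kinases did not overlap, at 0.86 to 1.28 for MVK and 0.41 to 0.81 for PMVK (95%); the difference between them was not tested. MVK lies on chromosome 12 from 110011060 to 110035930, and PMVK on chromosome 1 from 154897216 to 154909195.

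The enzymes that make the isoprene units rose by near-equal amounts. MVD had log2 values of 9.30 and 9.25 in control and 9.97 and 10.06 in GNA13-deficient libraries, a difference of 0.74 (standard error 0.07, adjusted p = 0.00308). IDI1, the isomerase, had values of 12.09 and 12.08 in control and 12.75 and 12.93 in GNA13-deficient libraries, a difference of 0.76 (standard error 0.08, adjusted p = 0.00364). The GNA13-deficient replicates of IDI1 differed by more than those of any other of the 8 genes, at 0.18. IDI2, the paralog beside it on chromosome 10, had values of 8.24 and 7.90 in control and 7.89 and 7.96 in GNA13-deficient libraries and was not called (adjusted p = 0.52). IDI1 has 3 named pseudogenes in the annotation, and reads shared with copies could blur its level. MVD lies on chromosome 16 from 88718343 to 88729569 and IDI1 on chromosome 10 from 1085092 to 1095059.

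FDPS and both squalene enzymes rose. FDPS, the farnesyl diphosphate synthase, had log2 values of 12.69 and 12.77 in control and 13.58 and 13.67 in GNA13-deficient libraries, a difference of 0.90 (standard error 0.07, adjusted p = 0.00198). The annotation names 8 FDPS pseudogenes, which makes its level uncertain by reads that copies may share. FDFT1, the squalene synthase that commits farnesyl diphosphate to sterols, had values of 12.89 and 12.97 in control and 13.67 and 13.79 in GNA13-deficient libraries, a difference of 0.80 (standard error 0.07, adjusted p = 0.00276). SQLE, the squalene epoxidase, had values of 12.08 and 12.05 in control and 12.69 and 12.69 in GNA13-deficient libraries. Its GNA13-deficient replicates were the closest of the set, and its difference of 0.62 (standard error 0.05, adjusted p = 0.00222) was close to that of PMVK. FDPS spans 155278539 to 155290457 on chromosome 1, FDFT1 spans 11653082 to 11696904 and SQLE 126010739 to 126034525, both on chromosome 8.

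GGPS1 was the exception. It had log2 values of 9.79 and 9.83 in control and 9.51 and 9.81 in GNA13-deficient libraries, so that GNA13-deficient replicate 2 lay between the control libraries and replicate 1 below both. The difference was -0.15 (95% interval -0.45 to 0.15, adjusted p = 0.395), and its upper bound lies below the lower bound of each of the other 8 genes (the lowest of these is 0.41, for PMVK). The sign of this small difference was not stable: it was 0.06 after centring of each library on its median and 0.0025 without GNA13-deficient replicate 1. GGPS1 lies on chromosome 1 from 235490665 to 235507847, and the annotation places a coding gene and a processed pseudogene over 15963 and 282 of its bases on the same strand, with which reads could be shared.

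**Figure D2:**
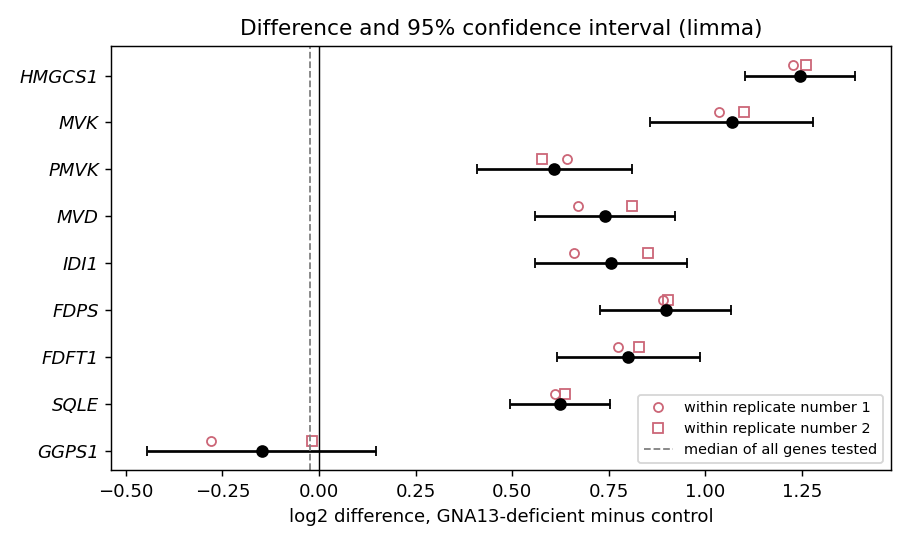
Log2 difference between GNA13-deficient and control libraries for each gene with its 95% confidence interval from limma (black), and the differences within replicate numbers 1 and 2 (open circles and squares). The 8 rises lie between 0.61 and 1.24, while the interval of GGPS1, at -0.15, includes 0.

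For each of the 8, both GNA13-deficient libraries lay above both control libraries, so a rise within each replicate number follows and adds nothing. The gap between the genotypes was at least 2.94 times the larger difference between replicates of the same gene. How many of all genes reach that ratio was not counted. Of all genes tested, 31.3% (40.0% of those at or above the median level) had both GNA13-deficient libraries above both control libraries. With any one of the 4 libraries left out, the 8 differences stayed between 0.53 and 1.28, but limma then called no gene of the table (5257 to 5600 genes had an unadjusted p under 0.05, these 8 among them each time), and the adjusted p of the 8 ranged from 0.0708 to 0.112. Without the filter on low values PMVK and IDI1 no longer passed (adjusted p = 0.0721 and 0.0528).

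Ratios between genes within a library do not change when each library is scaled by a common factor. They can change under quantile normalization. After it the differences were 0.76 for FDPS, 0.67 for FDFT1 and -0.10 for GGPS1, against 0.90, 0.80 and -0.15 as deposited. The ratios below are from the deposited values. The 5 pairs were chosen after the values were seen. The log2 ratio of FDPS to GGPS1 was 2.90 and 2.94 in control and 4.07 and 3.86 in GNA13-deficient libraries, a shift of 1.05, or 2.06-fold. For FDFT1 to GGPS1 it was 3.10 and 3.14 in control and 4.16 and 3.98 in GNA13-deficient libraries, a shift of 0.95. FDPS and FDFT1 thus moved together away from GGPS1. Between FDFT1 and FDPS the log2 ratio was 0.20 and 0.20 in control and 0.09 and 0.12 in GNA13-deficient libraries, a shift of only -0.10. The ratio of HMGCS1 to SQLE, the first and last steps measured, went from 0.10 and 0.06 in control to 0.72 and 0.69 in GNA13-deficient libraries. The ratio of SQLE to FDFT1 was -0.81 and -0.92 in control and -0.97 and -1.11 in GNA13-deficient libraries. Each ratio separated the genotypes, and 2 libraries against 2 cannot give an exact permutation p below 0.333 (two-sided), which is the value for all 5.

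**Figure D3:**
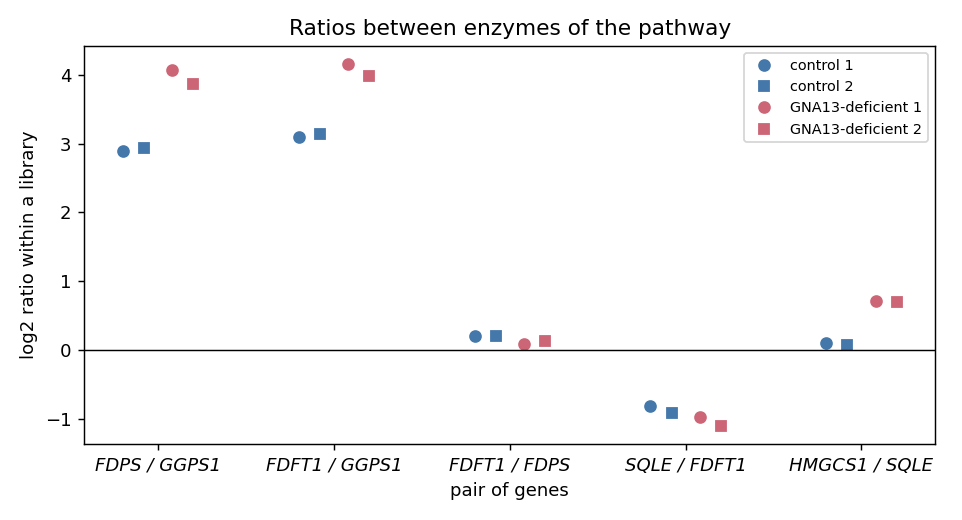
Log2 ratio of 2 genes within each library for 5 pairs (blue, control; red, GNA13-deficient; circles, replicate 1; squares, replicate 2). FDPS and FDFT1 each rise against GGPS1 by about a log2 unit (1.05 and 0.95), while FDFT1 against FDPS shifts by -0.10.

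Per kilobase of the MANE Select transcript, FDPS was the most abundant in control libraries, at 4786 ± 192 normalized reads per kb (SD, n = 2), followed by FDFT1 at 3834 ± 143, PMVK at 2238 ± 178, IDI1 at 1589 ± 7.07, SQLE at 1448 ± 20.5, HMGCS1 at 849 ± 26.6, MVD at 344 ± 8.91, GGPS1 at 310.2 ± 6.22 and MVK at 205 ± 8.13. In GNA13-deficient libraries FDPS reached 8914 ± 411 and FDFT1 6684 ± 419. HMGCS1 rose to 2010.0 ± 31.1 but kept its place under SQLE at 2230.0 ± 5.66. The order changed only at its foot, where MVK at 429.6 ± 30.9 stood above GGPS1 at 281 ± 41.5. No neighbours in either order overlapped between libraries. The order depends on the length used: per kilobase of all annotated exons, PMVK came before FDPS and FDFT1 in control libraries.

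Promoters of the set are shown because 8 genes rose and GGPS1 did not. The RefSeq table (GRCh38.p14) lists 12 starts for 7 of the 9 genes and has no entry for FDFT1 and SQLE. The 250 bases before each start were searched on both strands for CCAAT, the box bound by NF-Y, a known partner of SREBP factors, and for 3 other motifs. CCAAT was found at least 3 times for MVK, MVD and FDPS. For IDI1 it was found 3 times at 1 of its 3 starts, with 2 and 0 at the others. It was found 2 times for HMGCS1 at 1 of its 2 starts and 1 time for GGPS1 at 1 of its 3 starts. No box was found for PMVK, which rose. At least 1 box was present at 7 of the 12 starts, at least 2 at 6 and at least 3 at 4. Of all 35116 starts in the table, 32.0% hold 1 or more, 9.53% hold at least 2 and 2.93% at least 3. In MVK the boxes begin 210, 157, 94, 79 and 46 bases before the start, in FDPS 176, 122 and 51, in HMGCS1 155 and 100, and in GGPS1 240. The pair that begins 132 and 129 bases before an IDI1 start overlaps, as 1 box on each strand. None of the windows before these 12 starts held CACCCCAC, the core of a classical sterol regulatory element. Nor did any hold its looser form TCACNCCAC, which can overlap it, or the E-box CACGTG. These are present at 2.43%, 0.883% and 6.34% of all starts. At such shares, absence from 12 windows says little. Elements with other letters or outside the windows were not searched for. Matches are letters in a window and not measured binding. The largest rise (HMGCS1), the promoter with most boxes (MVK), the farnesyl branch point (FDPS), the gene that rose without a box (PMVK) and the gene that was not called (GGPS1) are given 5′ to 3′, each at the start with the most boxes, with CCAAT or its reverse ATTGG in capitals.
HMGCS1 (chr5:43313413-43313662, minus strand): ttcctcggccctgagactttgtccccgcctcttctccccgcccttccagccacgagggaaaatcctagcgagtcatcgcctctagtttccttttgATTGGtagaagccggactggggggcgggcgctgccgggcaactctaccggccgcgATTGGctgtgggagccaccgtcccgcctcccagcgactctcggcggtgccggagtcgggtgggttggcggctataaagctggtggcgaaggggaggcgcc
MVK (chr12:109573544-109573793, plus strand): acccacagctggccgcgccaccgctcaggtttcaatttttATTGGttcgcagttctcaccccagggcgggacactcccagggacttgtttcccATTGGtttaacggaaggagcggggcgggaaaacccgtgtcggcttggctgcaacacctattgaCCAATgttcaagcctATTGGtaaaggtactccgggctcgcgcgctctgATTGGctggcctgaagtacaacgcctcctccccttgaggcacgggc
PMVK (chr1:154936720-154936969, minus strand): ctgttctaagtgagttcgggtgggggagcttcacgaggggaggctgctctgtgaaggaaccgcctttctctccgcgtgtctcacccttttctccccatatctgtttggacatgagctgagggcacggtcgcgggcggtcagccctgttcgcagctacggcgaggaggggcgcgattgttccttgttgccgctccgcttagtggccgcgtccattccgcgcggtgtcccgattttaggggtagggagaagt
FDPS (chr1:155308616-155308865, plus strand): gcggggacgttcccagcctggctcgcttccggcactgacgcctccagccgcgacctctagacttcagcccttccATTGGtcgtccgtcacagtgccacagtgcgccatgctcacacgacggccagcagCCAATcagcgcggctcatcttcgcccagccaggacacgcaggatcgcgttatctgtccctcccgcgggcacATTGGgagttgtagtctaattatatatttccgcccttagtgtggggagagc
GGPS1 (chr1:235328320-235328569, plus strand): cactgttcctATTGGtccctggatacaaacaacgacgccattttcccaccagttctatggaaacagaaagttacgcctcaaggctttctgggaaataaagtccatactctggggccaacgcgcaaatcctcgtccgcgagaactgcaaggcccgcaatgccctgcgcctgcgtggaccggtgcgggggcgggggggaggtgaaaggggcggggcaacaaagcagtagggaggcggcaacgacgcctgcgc

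Genes that share a promoter region or overlap with a member were compared next. MMAB, a vitamin B12 enzyme transcribed away from MVK with a start 325 bases from it, had log2 values of 9.97 and 10.03 in control and 10.62 and 10.61 in GNA13-deficient libraries, a difference of 0.61 (standard error 0.06, adjusted p = 0.00306). Both genes of this divergent pair were thus higher. The genes overlap by 326 bases. The library kit keeps strand, but whether counting used it is not given in the sources used here. SNAI3-AS1, which starts 137 bases from MVD on the other strand, went the other way, at 5.93 and 6.23 in control and 5.04 and 5.15 in GNA13-deficient libraries (adjusted p = 0.0429), and passed neither without the filter nor after either rescaling. WDR37 beside IDI1 and ARID4B beside GGPS1 were not called (WDR37 was after median centring, adjusted p = 0.046), nor were the antisense genes IDI2-AS1 and RUSC1-AS1 that overlap IDI1 and FDPS.

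Enzymes that supply the pathway moved both ways. Of 6 genes, all tested, 3 were higher and 2 lower, with a median of 0.18. Among all genes tested, 13.1% were higher and 16.6% lower. ACAT2, the cytosolic thiolase that makes acetoacetyl-CoA for HMGCS1, rose by 1.00 (standard error 0.07, adjusted p = 0.0017), while the mitochondrial thiolase ACAT1 fell by 0.77 (standard error 0.06, adjusted p = 0.00222). SLC25A1, the citrate carrier, rose by 0.56, and ACLY, which splits citrate into acetyl-CoA, rose by 0.31, though not after quantile normalization (adjusted p = 0.189), without the filter (0.0792) or without the variance trend (0.0897). AACS, which activates acetoacetate, fell by 0.48. ACSS2, which makes acetyl-CoA from acetate, was not called, at 0.06.

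After squalene, the late sterol steps held 9 higher and 3 lower genes of 12, with a median of 0.57. Among all genes tested, 13.1% were called higher and 16.6% lower. EBP, a sterol isomerase, rose by 1.10 (standard error 0.06), while DHCR7, which makes cholesterol from 7-dehydrocholesterol, fell by 3.05 (standard error 0.16, adjusted p = 0.00114) and SC5DL, a desaturase, fell by 1.16 (standard error 0.09). No lower call was found among the 9 genes up to squalene epoxide and GGPS1, against these 3. With 16.6% of all genes tested called lower, counts this small do not set the lists apart. The lists were not tested against each other.

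**Figure D4:**
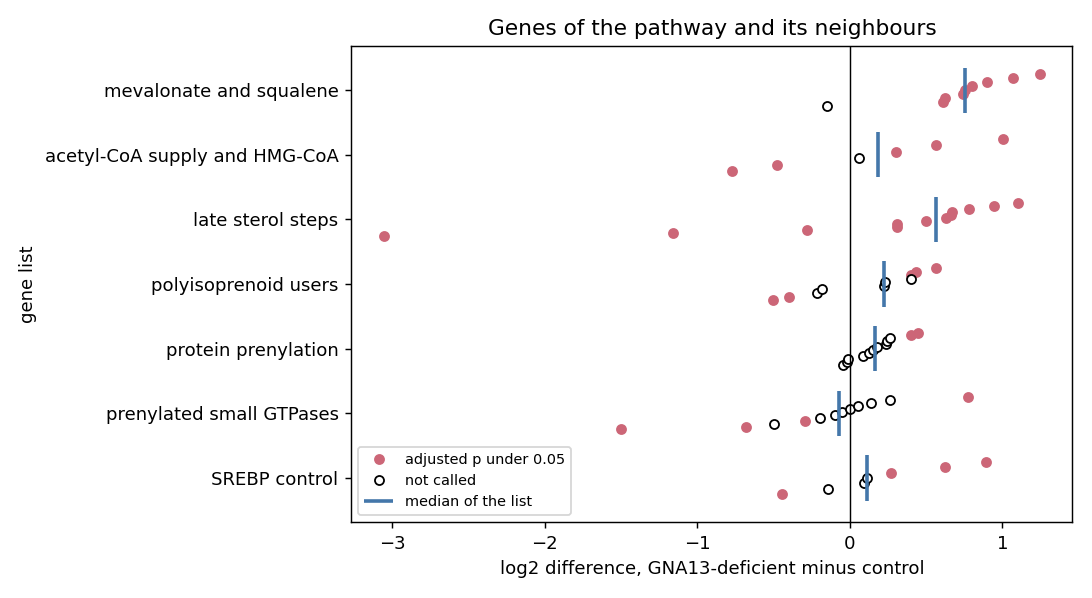
Log2 difference between GNA13-deficient and control libraries for each tested gene of 7 lists (red, adjusted p under 0.05; open, not called; blue bars, list medians). The mevalonate and squalene genes cluster between 0.61 and 1.24 with GGPS1 at -0.15, and the late sterol steps spread from -3.05 to 1.10.

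Users of the isoprenoid branch were compared next, and their counts stand beside 13.1% higher and 16.6% lower among all genes tested. Among 10 genes for ubiquinone, dolichol and tRNA isoprenoids, 3 were higher and 2 lower, with a median of 0.23. PDSS1, a ubiquinone side chain synthase, rose by 0.56, COQ2, which attaches that chain, rose by 0.43, and NUS1, a subunit of the dolichol chain synthase, fell by 0.50, though not after median centring (adjusted p = 0.0617), when 6 of the 10 were higher and 0 lower. Of 12 genes for protein prenylation, 2 were higher (ICMT, a methyltransferase of prenylated proteins, at 0.45, and FNTB, the farnesyltransferase beta subunit, at 0.40) and 10 were not called, with a median of 0.17. After median centring, which moved the median of all genes to 0.18, 8 of the 12 were called higher. In that setting 25.4% of all genes tested were called higher and 11.4% lower. COQ2 and FNTB did not pass without the filter on low values (adjusted p = 0.0818 and 0.128) or without the variance trend (0.0705 and 0.0975), nor did NUS1 (0.0815 and 0.062).

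Among 13 small GTPases that carry these lipids, 12 were tested, with 1 higher and 3 lower, beside 13.1% and 16.6% of all genes tested. RAC2, the hematopoietic Rac, rose by 0.77 (standard error 0.06), RHOC fell by 1.50 (standard error 0.11, adjusted p = 0.00204) and RHOH fell by 0.68. After median centring 4 were higher and 2 lower, beside 25.4% and 11.4% of all genes tested. The balance of this list thus depended on scaling. RHOA, the GTPase that Gα13 activates through ARHGEF1, was named after its values were seen. It had log2 values of 14.56 and 14.70 in control and 14.58 and 14.68 in GNA13-deficient libraries (95% interval of the difference -0.22 to 0.22), and the groups overlapped. RHOB was listed at 0 in all libraries.

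Of 7 genes that control SREBP factors, 3 were higher and 1 lower, with a median of 0.11. Among all genes tested, 13.1% were higher and 16.6% lower. After median centring 5 were higher and 0 lower (median 0.32), beside 25.4% and 11.4% of all genes tested. After quantile normalization 2 were higher and 1 lower, beside 16.2% and 15% of all genes tested. The counts thus depended on scaling, as did the shares over all genes. SREBF1 rose by 0.89 (standard error 0.09, adjusted p = 0.00376, but 0.0533 without the filter) and INSIG1, which retains SREBP factors in the endoplasmic reticulum and is itself their target, rose by 0.62 (standard error 0.05). SREBF2, which encodes SREBP2, rose by 0.27 (adjusted p = 0.0246) and did not pass after quantile normalization, where it was 0.11 (adjusted p = 0.151), without the filter (0.061) or without the variance trend (0.107). MBTPS1, a protease that releases SREBP factors, fell by 0.45 but did not pass after median centring (adjusted p = 0.0568), without the filter (0.12) or without the trend (0.086). SCAP, INSIG2 and MBTPS2 were not called, at 0.09, -0.14 and 0.11. After median centring SCAP and MBTPS2 were called higher (adjusted p = 0.0446 and 0.0193), and without the filter INSIG2 was called lower (0.0429), with a sign that turned under centring (0.066).

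Genes with the profile most like the mean of the 9, by Euclidean distance between values centred on each gene's mean over the 4 libraries, were FAM33A (now SKA2), ATAD3B, RANBP1, SLC39A1 and MRPS6, out of 8464 compared. Their distances ran from 0.00588 to 0.0254 and their differences from 0.71 to 0.75. IDI1 and MVD lay nearest to the mean among the 9 genes themselves, at 0.0623 and 0.0631, and GGPS1 farthest, at 0.891. All of these values come from the same 4 libraries. All 5 genes were called higher, which follows from choosing them for a profile that rises. Their distances are the lowest of 8464, whereas the 9 genes were chosen by name. The distances of the 5 and of the 9 therefore do not compare like with like.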

How the data were processed

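RNA was sequenced from 4 libraries of U46619-treated NUDUL1 cells. Alignment by the authors was to hg19, with STAR. Their deposited values are log2 normalized reads per gene, with 1 linear row of mapped totals. The normalization is not given in the sources used here, and the submitters' processing notes name HTSeq. The log2 values were fitted with limma 3.58.1 in R 4.3.3 (genotype as the only term, mean-variance trend, 2 residual degrees of freedom) for 16945 of 25066 genes, those above 0 in 2 or more libraries. Adjustment was by Benjamini-Hochberg over all genes tested, with calls at 0.05, and no p was adjusted over a list. The members and lists were chosen with earlier results of these data known, and some genes of the lists are not reported here.

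Low values step in whole reads (100% of values up to 400 reads, within rounding), and these reads gave the read numbers printed and a voom fit. Depth was 29209544 to 31537955 reads. Replicates differed by more than counting noise (mean chi-square per gene 11.7 and 11.4, against 1 for noise alone), so no library was treated as a copy of another. Technical duplicates of 1 culture could differ as much. Named genes were the 9 members, the 3 largest called differences of each pathway list (all genes of lists of up to 8), annotated neighbours within 1000 bases or overlapping, the paralog IDI2, GNA13 and the 5 nearest profiles. Positions came from GENCODE v44lift37 and promoters from RefSeq. Alternatives were other filters, pseudocounts, scalings, variance models, the replicate block, voom and leaving out each library. The fit was tested on simulated data with an assumed dispersion of 0.003. It recovered 53.4% of 58 genes with a log2 change of 0.5, 90.9% of 66 with 0.75 and 98.7% of 76 with 1. It made 0 false calls. These were the changed genes among 16340 simulated, whereas 5037 of 16945 genes were called in the deposited data. The recovery rates and the absence of false calls therefore describe the simulated data and were not shown for the deposited data. Smaller changes were not simulated, so a gene not called is not shown to be unchanged.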

Additional observations from a re-analysis of the deposited data

How the results depend on the processing

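The 8 calls among the 9 genes held under both pseudocounts, the filter at the median level, both rescalings, the robust prior and voom. Without the filter 6 were called and without the variance trend 7 (PMVK at an adjusted p of 0.0506). Their median difference was 0.67 after quantile normalization and 0.96 after median centring; relative to the median of all genes, which centring moved to 0.18, it was 0.60 and 0.78, against 0.78 as deposited. Over all genes, 1999 were called without the filter (1885 shared with the 5037) and 2718 without the trend (2520 shared). Of the calls, 44.03% were higher as deposited and 69.14% after median centring. With each library left out, the count of calls was 0 in all 4 fits, which have 1 genotype with a single library that is assumed to vary like the other; the median of the 9 genes ranged from 0.70 to 0.85, the highest without GNA13-deficient replicate 1. These fits use fewer samples; other causes were not tested.

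Signs turned only for genes not called as deposited, among the alternatives run. After median centring GGPS1 was 0.060, ARID4B 0.085, INSIG2 0.066 and IDI2 0.064; after quantile normalization IDI2 was 0.067 and RHOA -0.14. Across the fits without 1 library, GGPS1 ranged from -0.30 to 0.0025, ARID4B from -0.36 to 0.11, IDI2 from -0.31 to 0.025, RHOA from -0.067 to 0.069, ACSS2 from -0.068 to 0.19, IDI2-AS1 from -0.27 to 0.78, RUSC1-AS1 from -0.17 to 0.31 and WDR37 from -0.0005 to 0.22. Of 526 values for the 38 other named genes, 4 gained a call (WDR37, SCAP and MBTPS2 after median centring, INSIG2 without the filter). In the fits without 1 library every called gene lost its call, as above. In the other alternatives, calls of these genes were lost only without the filter, after either rescaling or without the variance trend.

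Both genotypes carry replicate numbers 1 and 2, which nothing in the labels or methods ties to a shared day or culture. Deviations of libraries with the same number correlated at 0.453 over 8473 genes. With the replicate block, 6616 genes were called and the 9 genes kept 8 calls with the same median, 0.76.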
